A study of Homo sapiens with 2 samples.

Results

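Cadherins are calcium-dependent adhesion proteins, and 4 members of their superfamily were examined in A549 cells with and without NAT10: CDH1, CDH6, PCDH7 and DSC3. They were taken by gene name from a table of 1415 genes, where each has a single row. All 4 had a lower RPKM (reads per kilobase of gene, scaled to library size, a unit inferred from the values) in the NAT10 knockout than in the control, from 2.35-fold for CDH1 to 18.9-fold for CDH6. The authors kept in the table those genes that passed their limits on fold change (a log2 size over 1) and on p-value (under 0.05), so that each of these genes is in it because it differed, and the presence of a difference is not a result here. What the data add is the level of each gene, the size of the difference with its counting error, and what the genes have in common. The limits also act on the size, so that a size can be overstated by this selection. The intervals given below do not cover it.

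A549 is an established cell line from human lung adenocarcinoma. The study removed NAT10, the enzyme that writes N4-acetylcytidine (ac4C) on RNA, to ask which transcripts depend on it. The control was unmodified A549, and the knockout was a single-cell clone made with CRISPR/Cas9 and 2 guide RNAs, so that what is particular to the clone and what follows from the absence of NAT10 cannot be told apart. There were 2 samples, 1 RNA-seq library per group, with effective sizes, inferred from the values, of 6077933 reads for the control and 5474964 for the knockout. No value therefore has a replicate check, and each interval is a 95% interval that covers counting error only. The transcript of NAT10 was not analysed here, so the knockout label was not checked on it. Of the marker lists, 1 of 6 genes for epithelial cells (CDH1) and 1 of 6 for mesenchymal cells (COL1A1) were in the table, with 0 of 4 for blood and 0 of 3 for endothelium. Since genes that the table does not hold were not analysed here, the identity of the cells could not be checked with them. COL1A1, which encodes a chain of type I collagen, was lower in the knockout like CDH1, with 30 control and 12 knockout reads and a log2 ratio of -1.17 (interval -2.27 to -0.16).

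Cadherins bind one another across the gap between neighbouring cells through repeated extracellular domains that need calcium. CDH1 encodes E-cadherin, the classical cadherin of epithelia, whose tail binds catenins and through them actin. CDH6 encodes K-cadherin, a classical cadherin of type II first described in the kidney. DSC3 encodes desmocollin 3, a desmosomal cadherin that is linked to keratin filaments and is typical of stratified epithelia. PCDH7 encodes protocadherin 7, which belongs to the non-clustered protocadherins and does not bind beta-catenin as classical cadherins do. Loss of E-cadherin in carcinoma is a textbook feature of the change from an epithelial to a mesenchymal state.

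The genes lie on 4 different chromosomes. On GRCh38, as annotated in GENCODE release 29, CDH1 (ENSG00000039068) is at chr16:68737225-68835548 on the plus strand, with 16 exons in its main coding transcript. CDH6 (ENSG00000113361) is at chr5:31193750-31329146 on the plus strand, with 12 exons. PCDH7 (ENSG00000169851) is at chr4:30720415-31146805 on the plus strand, with 2 exons. DSC3 (ENSG00000134762) is at chr18:30990008-31042815 on the minus strand, with 16 exons.

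The study describes ac4C on stretches of mRNA in which a cytidine is followed by 2 free bases again and again, so the coding sequences were searched for this pattern, written CNN for a C followed by any 2 bases. The following stretches are the longest uninterrupted CNN runs in the coding sequence of each gene, read from GENCODE release 29. Capitals mark the run, and 9 bases on either side are in lower case. They show how different the genes are in this feature.
CDH1: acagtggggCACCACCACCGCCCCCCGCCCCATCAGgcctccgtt
CDH6: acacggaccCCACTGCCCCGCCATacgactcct
PCDH7: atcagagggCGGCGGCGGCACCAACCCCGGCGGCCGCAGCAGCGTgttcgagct
DSC3: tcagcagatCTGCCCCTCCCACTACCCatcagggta
The CDH1 stretch, taken with its 9 lower-case bases on either side, spans the junction of exons 3 and 4. So taken, it maps between positions 68801858 and 68808432 of chromosome 16. The CDH6 stretch is in exon 12 at chr5:31323106-31323138, the PCDH7 stretch in exon 1 at chr4:30722106-30722159, and the DSC3 stretch in exon 6 at chr18:31024425-31024460, on the minus strand. The run was 9 triplets long in CDH1, 5 in CDH6, 12 in PCDH7 and 6 in DSC3, beside a median of 7 for the 790 other protein-coding genes of the table with a full coding sequence. The runs are descriptions of the reference sequence, and ac4C itself was not measured in these libraries. Untranslated regions were not searched, although the paper places ac4C in unmodified A549 mainly in the 3' untranslated and coding regions. In CDH6, for example, the coding sequence is 2370 of the 8476 bases of the transcript.

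Counted over the whole coding sequence, 4 CNN triplets in a row began at 11.7 positions per kb in CDH1, 23.7 in PCDH7, 4.64 in CDH6 and 2.98 in DSC3. The other protein-coding genes of the table had a median of 11.0 per kb, with quartiles of 4.57 and 20.4, and 94.9% of them had at least 1 such position. The cadherins thus lay on both sides of the median, PCDH7 above the upper quartile and DSC3 below the lower quartile. Listed genes that were lower in the knockout had a median of 11.0 per kb (488 genes), and those that were higher also had 11.0 (306 genes). The part of these repeats in the RPKM of the genes was not tested.

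**Figure D1:**
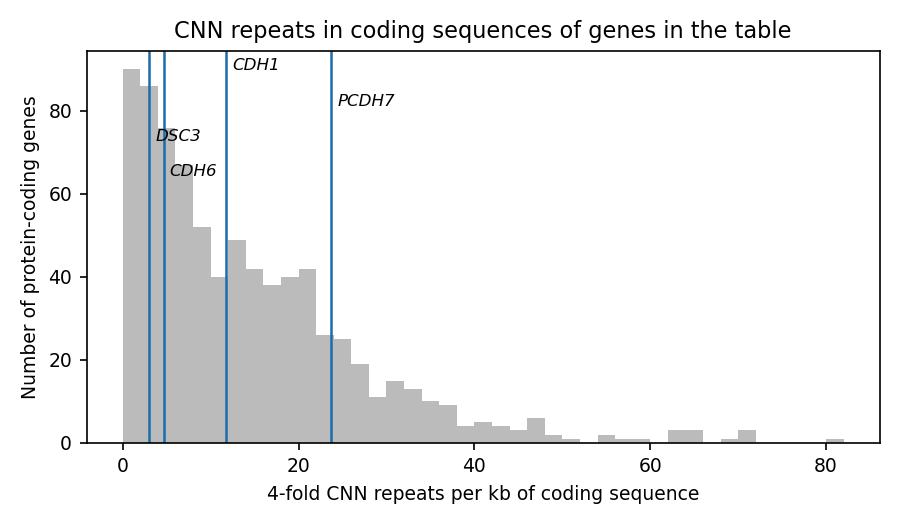
Number of protein-coding genes in the table (vertical axis) by 4-fold CNN repeats per kb of coding sequence (horizontal axis), with lines at the 4 cadherins. DSC3 (2.98) lies below the lower quartile, CDH6 (4.64) just above it, CDH1 (11.7) near the median and PCDH7 (23.7) above the upper quartile.

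The next comparison asked how high each cadherin was in each library. In the control, CDH1 reached 8.82 RPKM (331 reads, interval 7.89 to 9.82), and in the knockout 3.76 RPKM (127 reads, 3.13 to 4.47). It was by far the highest of these cadherins, at rank 84 of the 1415 genes by control RPKM. The RPKM of CDH1 was 2.35-fold lower in the knockout, a log2 ratio of -1.23 with an interval from -1.54 to -0.93.

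The control library had 0.994 RPKM of PCDH7 (74 reads, interval 0.780 to 1.25) and the knockout library 0.418 (28 reads, 0.277 to 0.603). The log2 ratio of PCDH7 was -1.25, with an interval from -1.93 to -0.61. DSC3 was at 0.839 RPKM in control cells (36 reads, interval 0.588 to 1.16) and at 0.259 RPKM in knockout cells (10 reads, 0.124 to 0.476). Its log2 ratio was -1.70, with an interval from -2.87 to -0.66. PCDH7 and DSC3 were thus near the middle of the table by control RPKM, whose median was 0.775.

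CDH6 was at 0.279 RPKM in control cells (21 reads, interval 0.173 to 0.427) and at 0.0148 RPKM in knockout cells, where a single read was left (interval 0.000374 to 0.0822). The RPKM of CDH6 was 18.9-fold lower, and since 1 read stands behind the knockout value, the interval of the fold ran from 3.04 to 782. On the log2 scale the ratio of CDH6 was -4.24, with an interval from -9.61 to -1.61. In each of the 4 genes the intervals of RPKM in the 2 libraries did not overlap. The table holds only genes that passed limits on fold change and p-value, so that nothing is read from this. The share over all genes was not counted.

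**Figure D2:**
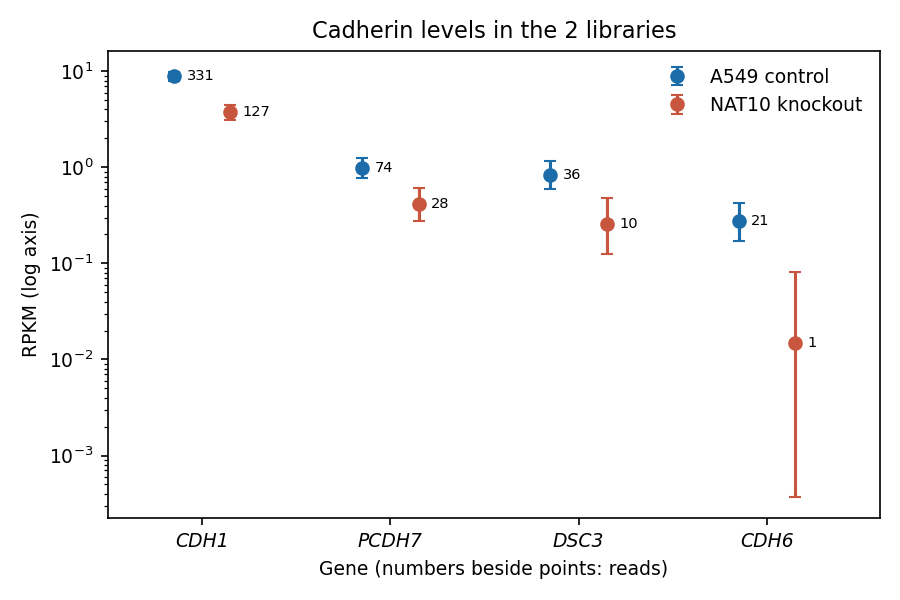
RPKM on a log axis for each cadherin in the control (blue) and the NAT10 knockout (red). Bars are 95% Poisson intervals of the reads, and the number beside each point is its reads. All 4 genes are lower in the knockout, with CDH6 down to 1 read.

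The order of the levels per length was the same in both libraries, with CDH1 first, then PCDH7, DSC3 and CDH6. PCDH7 and DSC3 could not be told apart by level, since their intervals overlapped in both libraries. The intervals of CDH1 lay above those of the other cadherins in both libraries, and those of CDH6 lay below them. CDH1 made up 80.7% of the summed RPKM of the 4 genes in the control and 84.5% in the knockout.

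The sizes of the differences were then compared between the cadherins, over 6 pairs. The log2 ratios of CDH1 and PCDH7 differed by 0.02, with an interval from -0.70 to 0.77. For CDH1 against DSC3 the difference was 0.47, from -0.63 to 1.68, and for PCDH7 against DSC3 it was 0.45, from -0.83 to 1.80. These widths leave room for differences of more than 1.5 times either way. CDH6 had the lowest ratio. The log2 ratio of CDH1 was above that of CDH6 by 3.01, with an interval from 0.34 to 8.39, but when the interval was widened to hold over all 6 pairs it ran from -0.20 to 11.0 and included 0. The same happened for CDH6 against PCDH7, with a difference of -2.99 and an interval from -8.41 to -0.20 that became -11.0 to 0.38. CDH6 against DSC3 gave -2.54, from -8.05 to 0.47. At this depth a deeper fall of CDH6 than of the others was therefore not shown once all pairs were considered.

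These differences were set beside all genes of the table. A lower RPKM in the knockout was found in 57.0% of the 1415 genes and in 61.4% of the 798 protein-coding genes. The intervals of all 4 cadherins lay below 0, which was the case for 39.2% of the 1376 genes with recovered reads, while 33.5% had an interval above 0. The rule took the cadherins from a table of genes that differ, so that nothing is read from these shares. Taken as log2(RPKM + 1), a measure that makes differences of weakly expressed genes look smaller, the difference was -1.05 for CDH1, -0.49 for PCDH7, -0.55 for DSC3 and -0.33 for CDH6. A difference beyond -1 on that scale was found for 1 of the 4 cadherins, CDH1, and for 19.4% of all genes in the table, with 13.4% beyond 1 in the other direction.

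**Figure D3:**
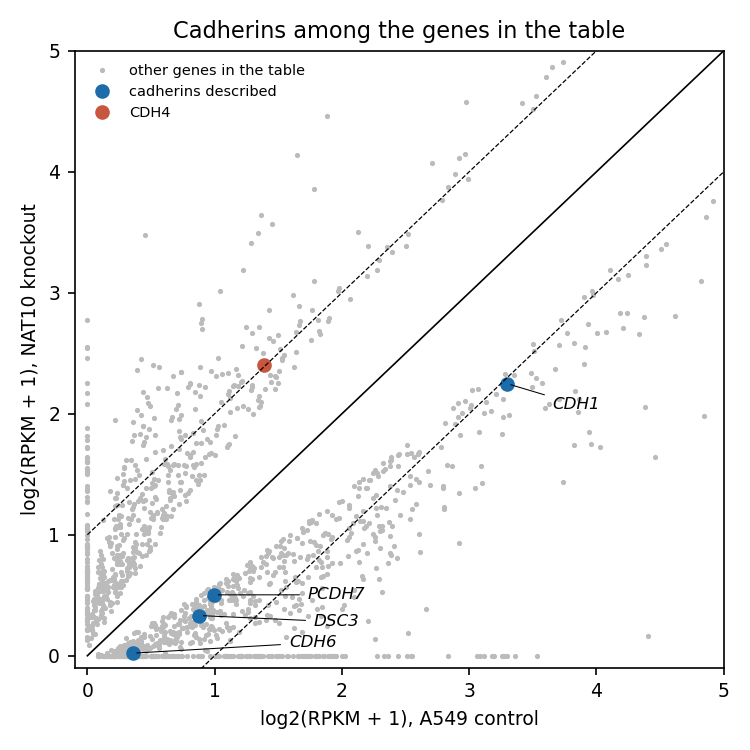
log2(RPKM + 1) in the control (horizontal axis) and in the knockout (vertical axis) for the genes of the table (grey), the 4 cadherins (blue) and CDH4 (red). The solid line marks equal levels and the dashed lines a difference of 1, and 26 genes beyond the axis limit of 5 are not drawn. CDH1 lies just beyond the lower dashed line, and the other 3 cadherins lie near the origin.

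For a wider view of the superfamily, a list of 114 cadherins, protocadherins, desmosomal cadherins and related genes was looked up. The table held 10 of them, 7 lower and 3 higher in the knockout, and the other 104 were not analysed here. Among protein-coding genes of the table, 61.4% were lower and 38.6% higher, which is close to the split of the 10. The median difference of the 10 on the log2(RPKM + 1) scale was -0.34, beside -0.32 for both all listed genes and the protein-coding ones. The interval was below 0 for 6 genes, namely CDH1, CDH6, PCDH7, DSC3, DSC2 and FAT3, and above 0 for CDH4 and PCDHA10.

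CDH4, which encodes R-cadherin, a classical cadherin best known from the retina, differed in the opposite direction to CDH1. Its level was 1.61 RPKM in control cells (72 reads) and 4.27 RPKM in knockout cells (172 reads), with a log2 ratio of 1.41 and an interval from 1.00 to 1.82. The RPKM of CDH1 was 5.47 times that of CDH4 in the control and 0.879 times in the knockout. This shift of CDH1 relative to CDH4 was -2.64 on the log2 scale, with an interval from -3.16 to -2.12. Each listed gene had passed the log2 limit of 1, so a lower and a higher gene are far apart by selection. Nothing is therefore read from the size of this shift. In the knockout the interval of CDH4, from 3.66 to 4.96 RPKM, overlapped that of CDH1. CDH4 was the only classical cadherin of the list with a higher RPKM in the knockout among CDH1, CDH4, CDH6 and CDH7, the 4 in the table.

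DSC2 encodes desmocollin 2, the desmocollin found in most epithelia, and lies beside DSC3 on chromosome 18. Its level was 0.598 RPKM in control cells (45 reads) and 0.251 RPKM in knockout cells (17 reads). The log2 ratio of DSC2 was -1.25, from -2.15 to -0.42. The ratios of DSC3 and DSC2 differed by -0.44, with an interval from -1.91 to 0.97. Both desmocollins in the table were thus lower in the knockout, and desmogleins, their partners in the desmosome, were not analysed here.

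FAT3, a very large atypical cadherin, went from 94 to 37 reads, with a log2 ratio of -1.19 and an interval from -1.78 to -0.63. PCDHA10, a clustered protocadherin, went from 9 to 20 reads, but 2866 bases (18.8% of its exon length) are shared with other genes of its cluster, so its value is uncertain. CDHR5 had 6 reads in the control library and 14 in that of the knockout, and its interval ran from -0.10 to 3.04. CDH7 went from 5 to 0 reads, where the count of 0 allows up to 0.0464 RPKM in the knockout, and its interval of the log2 ratio reached 0.28. The intervals of CDHR5 and CDH7 included no change.

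**Figure D4:**
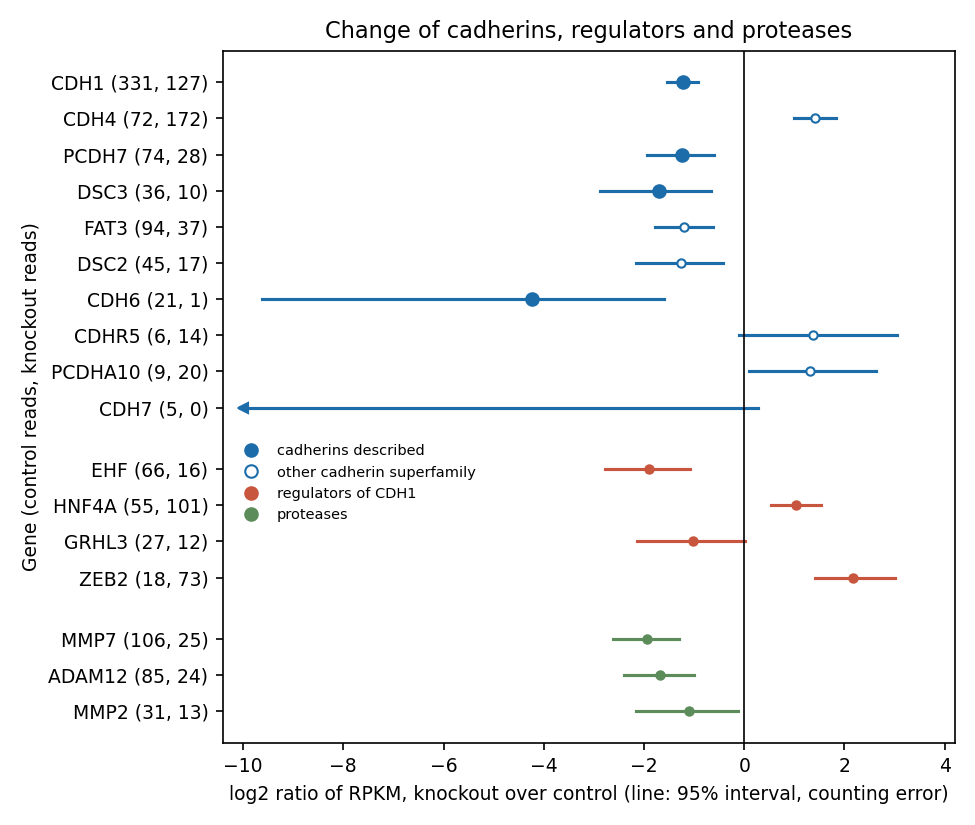
log2 ratio of RPKM, knockout over control (horizontal axis), with 95% counting intervals, for the 10 listed cadherin superfamily genes (blue, the 4 described cadherins filled), 4 regulators of CDH1 (red) and 3 proteases (green). Control and knockout reads stand beside each name, and an arrow marks an interval with no lower end. CDH4 and ZEB2 lie to the right of 0 and CDH1, CDH6, PCDH7 and DSC3 to the left.

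Cadherins work with cytoplasmic partners, under transcription factors that set CDH1, and are cut by proteases at the cell surface, and each group was looked up as a list. Of 35 partners, among them the catenins, plakoglobin, plakophilins and desmoplakin, the table held 1 (NECTIN4, which went from 5 to 0 reads with an interval reaching 0.28), so that the partners were otherwise not analysed here. Of 25 transcription and splicing factors linked to CDH1 or to the epithelial state, it held 4, with 2 lower and 2 higher. The shares over the protein-coding genes of the table were 61.4% lower and 38.6% higher.

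ZEB2, a zinc finger repressor of CDH1, was at 0.119 RPKM in control cells (18 reads) and at 0.534 RPKM in knockout cells (73 reads). It was higher in the knockout with a log2 ratio of 2.17 and an interval whose lower end was 1.41. EHF, an epithelial ETS factor, went the other way, from 66 to 16 reads, with a log2 ratio of -1.89 from -2.78 to -1.09. GRHL3, an epithelial factor of the grainyhead family, had 27 reads in control cells and 12 in knockout cells, and its interval of -2.13 to 0.01 included no change. HNF4A, a nuclear receptor of hepatic and intestinal epithelia, went from 55 to 101 reads, with a log2 ratio of 1.03 from 0.54 to 1.53. The part of these factors in the level of CDH1 was not tested.

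ZEB proteins bind the sequence CAGGTG, which reads CACCTG on the other strand. RefSeq promoters (GRCh38.p14) were at hand for PCDH7 and DSC3, 2 of the 4 cadherins. Neither held these letters in the 250 bases before the start, and 17.5% of all 35116 promoters in the collection did. CDH1 and CDH6 had no entry.

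Of 17 proteases that cut or process cadherins and their neighbours, 3 were in the table, and all 3 were lower, beside 61.4% of the protein-coding genes in a table that holds only genes that differ. MMP7, matrilysin, which can shed E-cadherin, went from 106 to 25 reads, with a log2 ratio of -1.93 from -2.62 to -1.29. ADAM12 went from 85 to 24 reads, with a log2 ratio of -1.67 from -2.39 to -1.01. MMP2, gelatinase A, went from 31 to 13 reads, with a log2 ratio of -1.10 from -2.16 to -0.13.

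The annotation and the position of the cadherins were also examined. Exons of CDH1 share 347 bases, 5.62% of its exon length, with AC099314.1, an antisense gene on the opposite strand that is itself in the table. AC099314.1 went from 36 to 12 reads, with a log2 ratio of -1.43 and an interval from -2.51 to -0.46, which differed from that of CDH1 by 0.20, with an interval from -0.83 to 1.33. The control RPKM of AC099314.1 was 10.5 and its knockout RPKM 3.90, close to the values of CDH1. With far fewer reads at a like RPKM, AC099314.1 has less exon length, so the shared bases are a larger part of it. How strand was treated in counting is not stated in the sources used here. Reads of AC099314.1 and of CDH1 therefore cannot be told apart where they overlap. The interval between their ratios treats these reads as separate, so nothing is read from how near the values of AC099314.1 and CDH1 are. Of CDH6, 8.96% of the exon length is shared with the pseudogene DUX4L51 on the same strand and 1.01% with an antisense gene. No exon of PCDH7 or DSC3 overlaps an exon of another gene.

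Other genes of the table whose start lay within 5 Mb of a cadherin start did not share a direction in each case. CDH1 had 12, of which 8 were lower and 4 higher. CDH6 had 2, PDZD2, which went from 22 to 9 reads, and ADAMTS12, a secreted metalloproteinase, which went from 20 to 159 reads with a log2 ratio of 3.14 from 2.47 to 3.89. DSC3 had 2, DSC2 and AC011815.1, and both were lower. PCDH7 had 0. Over whole chromosomes, 40 of the other 71 listed genes of chromosome 16 were lower (56.3%), as were 33 of 64 on chromosome 5 (51.6%), 38 of 52 on chromosome 4 (73.1%) and 18 of 21 on chromosome 18 (85.7%). Chromosome 18, with DSC3, DSC2 and CDH7, and chromosome 4, with PCDH7, thus had shares above the 57.0% of the table as a whole. The share of chromosome 16, with CDH1, was close to it, and that of chromosome 5, with CDH6, was below it. The part of chromosomal position in the values of these genes was not tested.

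**Figure D5:**
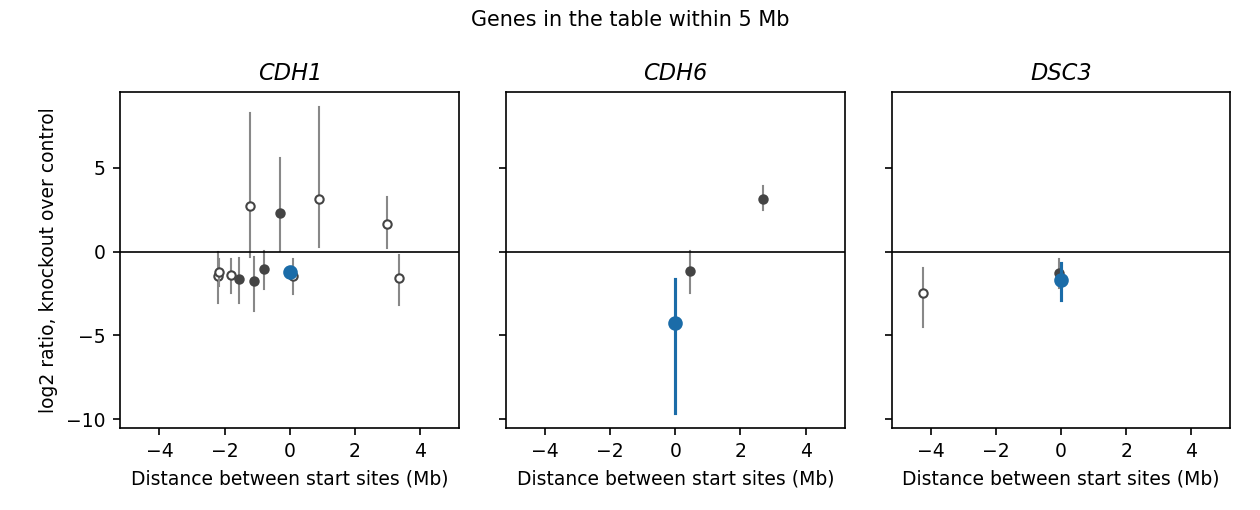
log2 ratio of RPKM, knockout over control (vertical axis), against the distance between start sites in Mb (horizontal axis, positive downstream), for CDH1, CDH6 and DSC3 (blue) and the other genes of the table within 5 Mb (filled for protein-coding, open for others). Bars are 95% counting intervals. Neighbours of CDH1 and CDH6 lie on both sides of 0, and both neighbours of DSC3 lie below it.

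Finally, for each cadherin the 3 protein-coding genes of the table with the nearest levels were found, by the distance in log2(RPKM + 1) over the 2 libraries. Nearest to CDH1 were ZNF703 (8.25 and 3.49 RPKM in control and knockout, distance 0.12), THSD7A (8.60 and 3.36, distance 0.13) and FAM84B (7.76 and 3.28, distance 0.22). ELOVL4, FSBP and CCDC87 were nearest to PCDH7 (distances of 0.0151 to 0.0455), CSPG5, CNIH2 and COL21A1 to DSC3 (0.0231 to 0.0350), and KCNE4, HMSD and SIGLEC10 to CDH6 (0.0211 to 0.0239). The neighbours of CDH6 had 5 to 7 control reads and no knockout reads, fewer than the 21 control reads of CDH6. With 2 libraries, such nearness describes level and direction only.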

How the data were processed

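RNA was extracted from A549 control cells and the NAT10 knockout clone, and libraries were prepared with an mRNA-seq kit of the SMARTer line. The submitters' processing notes name hg38. The aligner, annotation and counting tool are not given in the sources used here. The authors deposited a normalised value per gene and library whose unit the sources used here do not name, and it was taken as RPKM from the values. The authors' deposited log2 fold change and p-value columns were used only to check that the file obeys their limits, and for no result. Samples were grouped by title.

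RPKM times exon length (GENCODE release 29, GRCh38) was within 0.02 of a whole read in each library for 1343 of 1408 genes (95.4%), at a single fitted library size per column, which is how unit and sizes were inferred. Another 33, among them DSC2 and ZEB2, needed a length rescaled by at most 5%, and 39 genes had no recovered reads. Log2 ratios carry no pseudocount unless log2(RPKM + 1) is named. Their intervals are Clopper-Pearson, those of RPKM are exact Poisson, and those between genes are exact conditional intervals of an odds ratio (Python 3.11.15, scipy 1.17.1, numpy 2.4.6, pandas 2.3.3). With 1 library per group, all of these cover counting error alone. No molecular identifiers were used, so that copies of a molecule count as separate reads and the intervals can be too narrow. Scripts were tested on simulated data. Coding sequences are those of the APPRIS principal transcript.

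The members and lists were chosen with earlier results of these data known. Named genes were the 4 cadherins, list members that the table holds, and the 3 protein-coding genes nearest each cadherin in level. AC099314.1, DUX4L51, PDZD2, ADAMTS12 and AC011815.1 were named after their values were seen, for their position, and COL1A1 as a marker.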

Additional observations from a re-analysis of the deposited data

How the results depend on the processing

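With 1 library per group, leaving out a replicate was not possible. No paired analysis was possible because each group had 1 library. A further scaling to a stated library total was not run, since no such total could be had without the authors' own comparison columns. The effective sizes given above were fitted to the RPKM, which was taken as already scaled to library size. The sign of each cadherin's difference could not change with another pseudocount, so only its size was at stake. On the log2 scale CDH1 went from -1.05 with a pseudocount of 1 RPKM to -0.66 with one of 5 RPKM. Without a pseudocount PCDH7 went from -0.49 to -1.25 and DSC3 from -0.55 to -1.70. CDH6 ranged from -0.07 with a pseudocount of 5 RPKM to -4.24 without one. With 1 RPKM added, the values of CDH6, PCDH7 and DSC3 lie outside the counting intervals of their ratios of reads. With 5 RPKM added, the value of CDH1 lies outside its interval as well. The counts of cadherin superfamily genes beyond 1, which were 1 lower and 1 higher, became 5 and 2 when 0.1 RPKM was added instead, and 0 in both directions when 5 RPKM was added. Those of all genes in the table, 274 lower and 189 higher, became 719 and 556 with 0.1 RPKM, 45 and 21 with 5 RPKM, and 97 and 37 for protein-coding genes only. A larger pseudocount pulls low genes toward 0, and most of these cadherins had an RPKM under 1. Depth limits CDH6 most, with 22 reads over both libraries.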
